A study of Mus musculus with 8 samples.

Results

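The genes described here are 10 parts of the Notch signalling pathway that endothelial cells are known to use: the receptors Notch1 and Notch4, the ligands Dll4, Jag1 and Jag2, the nuclear partner Rbpj, and the target genes Hey1, Heyl, Hes1 and Nrarp. They were chosen by gene symbol, and all 10 were found among the 24394 symbols that the 8 deposited tables share. YT-ECKO libraries came from C57BL/6J mice at postnatal day 8 with floxed Yap and Taz alleles (gene symbols Yap1 and Wwtr1) and the driver VE-cadherin-CreERT2, which puts a tamoxifen-activated recombinase under an endothelial promoter. WT libraries came from wild-type mice of the same strain and age. There were 4 libraries in each group, made from total RNA of endothelial cells that were sorted from brain by flow cytometry. The comparison asks how transcript levels in these cells differ once both co-activators of the Hippo pathway are targeted for deletion. The Cre transgene, the floxed alleles and any tamoxifen given differ between the groups together with the deletion and cannot be told apart from it. Whether every library is from its own mouse is not stated in the labels, and the p-values therefore cover the spread between these libraries, which may be technical.

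In Notch signalling a ligand on one cell binds a receptor on its neighbour, and cleavage of the receptor releases its intracellular domain. That domain enters the nucleus and, with the DNA-binding protein RBPJ and Mastermind co-activators, switches on target genes such as those of the Hes and Hey families. In sprouting vessels, Dll4 on the leading tip cell activates Notch in the stalk cells behind it and restrains their sprouting, Jag1 opposes Dll4, and Notch also favours arterial identity.

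Values are given as scaled reads, the deposited log2 values returned to the linear scale. Libraries summed to 10.3 to 10.9 M scaled reads, and the spacing of their low values implied a depth of 6.61 to 13.6 M reads in YT-ECKO and 7.44 to 16.8 M reads in WT. Both targeted transcripts separated the groups: Wwtr1 stood at 348 to 2608 scaled reads in YT-ECKO against 5650 to 8220 in WT, and Yap1 at 9.29 to 605 in YT-ECKO against 1409 to 2833 in WT. Both stayed above 0 in every YT-ECKO library and were highest in YT-ECKO 2. How complete the deletion was in each library was not tested. Log2 differences are YT-ECKO minus WT on the scale of log2(scaled reads + 128), with the SE or 95% interval from limma. They understate differences of low genes. Adjusted p-values cover all 8706 genes that reached 10 scaled reads in 4 or more libraries. Each permutation p is exact, two-sided and taken over the 70 ways to divide 8 libraries 4 against 4, with a smallest possible value of 0.0286. In sorted bulk RNA, fewer cells with a transcript and less of it per cell cannot be told apart.

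No tested Notch gene among the 10 passed the test between YT-ECKO and WT. Of the 9 that could be tested, 3 had a higher fitted value in YT-ECKO (Notch4, Jag2 and Hey1) and 6 a lower one, and 0 had a limma adjusted p under 0.05. Over all genes, 3 of 8706 did so, or 0.0345%. Rbpj, lower in YT-ECKO, was the 1 member with an unadjusted limma p under 0.05, against 5.47% of all tested genes (3.69% lower and 1.78% higher), and with voom on rebuilt reads there were 0. The median log2 difference of the 9 genes was -0.27 and that of all tested genes was -0.09, with 56.9% of all tested genes lower in YT-ECKO. None of the 10 genes separated the 4 YT-ECKO libraries from the 4 WT libraries without overlap, as 3.40% of all tested genes did (2.07% lower and 1.33% higher in YT-ECKO).

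**Figure D1:**
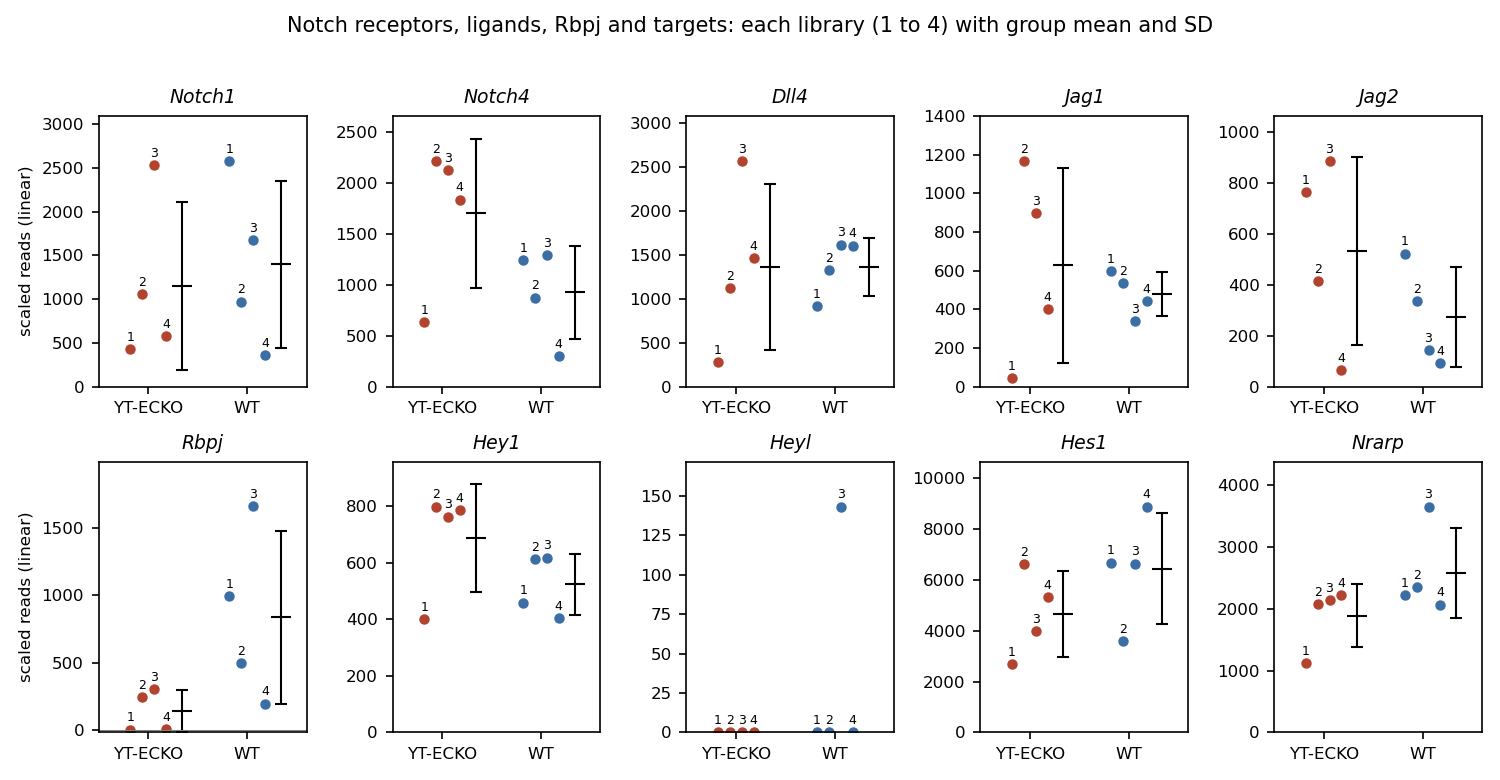
Scaled reads (linear axis from 0, or just below it for Rbpj) of the 10 Notch genes in each library, with YT-ECKO in red left of WT in blue. Digits are the library numbers, and black bars are the group mean ± SD (n = 4), left out for Heyl, which is listed at 0 in 7 of 8 libraries. The groups overlap in every panel, and for Rbpj the library WT 4 at 196 is the 1 WT library within the YT-ECKO range.

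Of the receptors, Notch1 had a lower and Notch4 a higher fitted value in YT-ECKO, and neither passed the test. Notch1 (GRCm38 chromosome 2, 26457903 to 26516663, minus strand), the main Notch receptor of endothelium, stood at 428, 1058, 2535 and 579 scaled reads across YT-ECKO 1 to 4, against 2582, 970, 1673 and 360 across WT 1 to 4. High and low libraries occurred in both groups, and the ranges overlapped almost fully. The means were 1150 ± 962 in YT-ECKO and 1396 ± 955 in WT (SD, n = 4 a group; exact permutation p = 0.8). The log2 difference was -0.27 ± 0.55 (SE; 95% interval -1.41 to 0.87; limma adjusted p = 0.991). It was 0.04 without YT-ECKO 1 and 0.10 without WT 1.

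Notch4 (chromosome 17, 34564268 to 34588503, plus strand) encodes a receptor largely restricted to endothelium. It stood at 633, 2218, 2125 and 1836 scaled reads across YT-ECKO 1 to 4, against 1240, 872, 1292 and 300.5 across WT 1 to 4. YT-ECKO 2, 3 and 4 lay above every WT library, and YT-ECKO 1 lay below 3 of the 4. The means were 1703 ± 732 in YT-ECKO and 926 ± 457 in WT (SD, n = 4 a group; exact permutation p = 0.143). On the log2 scale the difference was 0.81 ± 0.48 (SE; 95% interval -0.18 to 1.80; limma adjusted p = 0.961). Without YT-ECKO 1 it was 1.19 and the groups did not overlap, as for 6.74% of all tested genes without that library, and without WT 4 it was 0.43.

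The promoters of these receptors are printed here because YAP and TAZ have no DNA-binding domain of their own and reach DNA through TEAD factors, whose core motif GGAATG occurs in both. The windows are the 250 bases before a RefSeq start (GRCm38.p6), read in the direction of the gene. These starts lie inside the gene spans printed above, downstream of the outermost start in the GENCODE annotation. Capitals mark the motif, which stands here as its reverse complement CATTCC.
Notch1 promoter, chr2:26503823-26504072, minus strand: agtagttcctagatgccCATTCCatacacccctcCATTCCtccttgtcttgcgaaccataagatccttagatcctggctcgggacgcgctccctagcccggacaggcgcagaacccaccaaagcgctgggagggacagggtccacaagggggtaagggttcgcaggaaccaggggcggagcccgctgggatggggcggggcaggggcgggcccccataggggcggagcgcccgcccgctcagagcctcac
Notch4 promoter, chr17:34564045-34564294, plus strand: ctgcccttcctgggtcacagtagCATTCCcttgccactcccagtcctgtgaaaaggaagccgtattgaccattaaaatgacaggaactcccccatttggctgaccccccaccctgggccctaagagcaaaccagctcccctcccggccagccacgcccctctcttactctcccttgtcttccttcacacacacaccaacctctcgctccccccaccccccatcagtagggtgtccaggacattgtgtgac
The Notch1 window held 2 matches, with first bases 233 and 216 bases before the start, and the Notch4 window held 1 at 227 bases. Shares were taken over 32851 promoter windows of this length, which do not cover every chromosome. On either strand, 12.6% of them held the motif and 1.02% held it at least 2 times. These matches describe the letters of the windows. Binding was not measured.

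Of the ligands, Dll4 (chromosome 2, 119325784 to 119335962, plus strand), the tip cell ligand, had nearly equal means, 1360 ± 949 scaled reads in YT-ECKO and 1366 ± 330.1 in WT (SD, n = 4 a group; exact permutation p = 1). The YT-ECKO libraries held 280.1, 1124, 2573 and 1463 scaled reads, against 915, 1325, 1618 and 1607 in the WT libraries. YT-ECKO held both the lowest and the highest value of the 8. The fitted log2 difference was -0.27 ± 0.49 (SE; 95% interval -1.27 to 0.74; limma adjusted p = 0.991), and it was 0.26 without YT-ECKO 1. Gm14207, a transcript annotated on the opposite strand over Dll4, was listed at 0 to 425 scaled reads in YT-ECKO and at 159 to 444 in WT. No source used here gives the strand setting of the counting, so reads of the 2 genes may not be fully separated.

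Jag1 (chromosome 2, 137081456 to 137116644, minus strand), the ligand that opposes Dll4 in sprouting, stood at 43.2, 1167, 895 and 399 scaled reads across YT-ECKO 1 to 4, against 598, 534, 339 and 443 across WT 1 to 4. The 4 WT libraries lay close together, and the YT-ECKO libraries spread to both sides of them. The means were 626 ± 502 in YT-ECKO and 479 ± 112 in WT (SD, n = 4 a group; exact permutation p = 0.571). The log2 difference of -0.03 ± 0.59 (SE; 95% interval -1.24 to 1.19; limma adjusted p = 0.998) has the opposite sign to the difference of the means. It was 0.57 without YT-ECKO 1, and also above 0 without YT-ECKO 4 (0.03), WT 1 (0.07) or WT 2 (0.02).

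Jag2 (chromosome 12, 112907819 to 112929776, minus strand), the other Jagged ligand, stood at 763, 413, 885 and 64.4 scaled reads across YT-ECKO 1 to 4, against 522, 335, 144 and 91.5 across WT 1 to 4. YT-ECKO 1 and 3 exceeded every WT library, while YT-ECKO 4 was the lowest of the 8. The means were 531 ± 370.2 in YT-ECKO and 273 ± 196 in WT (SD, n = 4 a group; exact permutation p = 0.314). The log2 difference was 0.60 ± 0.62 (SE; 95% interval -0.67 to 1.87; limma adjusted p = 0.990). It was 1.11 without YT-ECKO 4 and 0.31 without YT-ECKO 3. Mir6941, annotated within Jag2 on the same strand, was listed at 386 scaled reads in YT-ECKO 1, at 1.48 in WT 2 and at 0 elsewhere, so the value of Jag2 in YT-ECKO 1 may be split between the symbols.

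Rbpj (chromosome 5, 53466152 to 53657362, plus strand), whose protein all 4 mammalian Notch receptors need to switch on their targets, was the member with the largest fitted difference. It stood at 4.67, 245, 304 and 9.21 scaled reads across YT-ECKO 1 to 4, against 995, 499, 1661 and 196 across WT 1 to 4. YT-ECKO 1 and 4 lay below every WT library, and WT 1, 2 and 3 lay above every YT-ECKO library, so that WT 4 alone made the groups overlap. The values of YT-ECKO 1 and 4 stand for about 3 and 8 reads. The means were 141 ± 156 in YT-ECKO and 838 ± 640.2 in WT (SD, n = 4 each), with an exact permutation p of 0.0857. The fit gave a log2 difference of -1.78 ± 0.63 (SE; 95% interval -3.08 to -0.48). Its unadjusted limma p was 0.00941, and its adjusted p over all genes was 0.712, so Rbpj was not called. Its value was -1.39 without WT 3, with the unadjusted limma p then above 0.05, and -2.21 without WT 4, where the groups did not overlap, as for 5.77% of all tested genes. With Xist as a covariate it was -1.16, again with an unadjusted limma p above 0.05. Xist, the transcript of the inactive X chromosome, stood at 6299, 8434, 4150 and 6.91 scaled reads across YT-ECKO 1 to 4. Across WT 1 to 4 it stood at 17929, 8255, 22931 and 4611, and the labels give no sex for the mice. The annotation lists 2 processed pseudogenes named after Rbpj, and no source used here says how the authors' counting treated reads that fit several places. Rbpjl, a paralogue, was listed at 0 in all 8 libraries.

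The window before a RefSeq start of Rbpj, which lies well inside the printed gene span and not at its outermost GENCODE start, is shown because it holds the core motifs of both factors in question, RBPJ itself (TGGGAA) and TEAD (GGAATG). Capitals mark them on either strand. The motifs can share letters, which they do not do in this window.
Rbpj promoter, chr5:53590096-53590345, plus strand, GRCm38.p6 from RefSeq: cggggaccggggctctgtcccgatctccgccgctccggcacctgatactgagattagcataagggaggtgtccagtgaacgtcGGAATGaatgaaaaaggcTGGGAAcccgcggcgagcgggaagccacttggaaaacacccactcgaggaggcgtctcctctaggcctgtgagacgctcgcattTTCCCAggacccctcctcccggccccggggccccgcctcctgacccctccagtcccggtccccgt
The RBPJ motif began 149 and 65 bases before the start, the second time on the opposite strand, and the TEAD motif began at 167 bases. Of the 32851 promoter windows compared, 21.6% held the RBPJ motif and 2.77% held it at least 2 times. A second annotated start of Rbpj has a window that shares the match nearest this start. Of the 10 genes 7 had a window in the RefSeq table, and those of Dll4, Jag1, Jag2 and Nrarp had neither run of letters within 250 bases, which says nothing of the factors elsewhere.

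**Figure D2:**
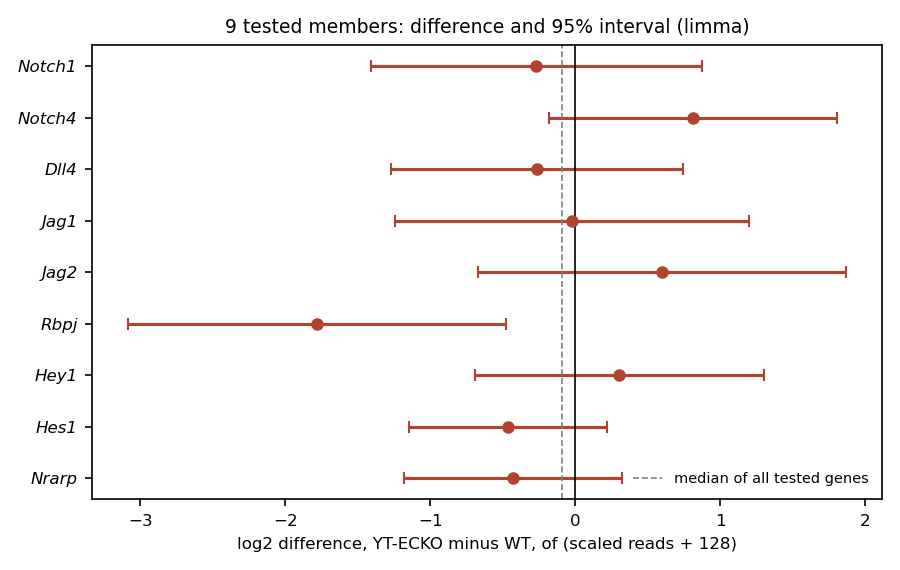
Fitted log2 difference, YT-ECKO minus WT, of scaled reads + 128 for the 9 tested Notch genes (points) with 95% intervals from limma (bars, 4 libraries a group). The solid line is 0 and the dashed line the median of all tested genes at -0.09. The interval of Rbpj, from -3.08 to -0.48, is the 1 interval that leaves out 0, before adjustment.

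Among the targets, the repressor gene Hes1 (chromosome 16, 30064384 to 30067796, plus strand) stood at 2678, 6603, 3981 and 5316 scaled reads across YT-ECKO 1 to 4, against 6672, 3588, 6636 and 8872 across WT 1 to 4. WT 1, 3 and 4 lay above all YT-ECKO libraries, the nearest by a narrow margin, and WT 2 lay within the YT-ECKO range. The means were 4645 ± 1693 in YT-ECKO and 6442 ± 2171 in WT (SD, n = 4 a group; exact permutation p = 0.229). On the log2 scale the difference was -0.47 ± 0.33 (SE; 95% interval -1.15 to 0.22; limma adjusted p = 0.981). It was -0.24 without YT-ECKO 1, -0.29 without WT 4 and -0.72 without WT 2, where the groups did not overlap, as for 5.54% of all tested genes.

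Nrarp (chromosome 2, 25180758 to 25183339, plus strand), a feedback inhibitor of Notch that in mouse also tunes Wnt signalling in stalk cells, stood at 1121, 2077, 2144 and 2221 scaled reads across YT-ECKO 1 to 4, against 2226, 2353, 3651 and 2067 across WT 1 to 4. YT-ECKO 2, 3 and 4 lay within a narrow band just below WT 1 and WT 2, with YT-ECKO 1 well under it and WT 3 well above it. The means were 1891 ± 517 in YT-ECKO and 2574 ± 727 in WT (SD, n = 4 a group; exact permutation p = 0.171). The fitted log2 difference was -0.43 ± 0.37 (SE; 95% interval -1.18 to 0.32; limma adjusted p = 0.990). Without WT 4 the value was -0.52 and the groups did not overlap, as for 5.77% of all tested genes without that library. Without YT-ECKO 1 it was -0.21, and without WT 3 it was -0.26.

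Hey1 (chromosome 3, 8663359 to 8667256, minus strand), a repressor gene that Notch induces in arterial endothelium, leaned the other way from Hes1 and Nrarp. It stood at 400.3, 798, 763 and 786 scaled reads across YT-ECKO 1 to 4, against 458, 612, 618 and 404 across WT 1 to 4. YT-ECKO 2, 3 and 4 were close to each other and above every WT library, while YT-ECKO 1 was the lowest of the 8. The means were 687 ± 192 in YT-ECKO and 523 ± 109 in WT (SD, n = 4 a group; exact permutation p = 0.229). The log2 difference was 0.30 ± 0.48 (SE; 95% interval -0.69 to 1.30; limma adjusted p = 0.990). Without YT-ECKO 1 it was 0.50 and the groups did not overlap, as for 6.74% of all tested genes without that library. Whether the difference of Hey1 departs from those of Hes1 and Nrarp was not tested.

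Heyl (chromosome 4, 123233556 to 123249875, plus strand), a Notch target better known from mural cells, was listed at 143 scaled reads in WT 3 and at 0 in the remaining 7, too few for a test. Mural markers were present: the 13 mural genes summed to 156, 827, 1248 and 855 scaled reads across YT-ECKO 1 to 4, against 1821, 1509, 598 and 413 across WT 1 to 4, with none of the 13 above 0 in all 8 libraries and Anpep at 0 throughout. The 12 endothelial markers, all above 0 in every library, summed to 96943 to 129211 scaled reads in YT-ECKO against 97888 to 117108 in WT. Of the 5 mural genes that could be tested, with Notch3 among them, 0 were higher and 5 lower in YT-ECKO (median log2 difference -0.43). Over all tested genes 56.9% were lower. The part of mural cells in the value of Heyl was not tested.

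Markers of other cell types had summed levels that overlapped between the groups for every list, while several lists leaned one way. The 9 astrocyte and radial glia genes, which include the Notch target Hes5, summed to 497 to 1075 scaled reads in YT-ECKO against 788 to 1307 in WT. Aldh1l1 was at 0 throughout, and all 3 that could be tested were lower in YT-ECKO (median -0.67). The 8 microglia and leukocyte genes summed to 1.51 to 221 in YT-ECKO against 161 to 1043 in WT, with Ptprc, Itgam, Cd68 and P2ry12 at 0. The 6 fibroblast genes summed to 0 to 215 in YT-ECKO against 110 to 474 in WT, with Lum at 0. The 6 neuron genes summed to 17.6 to 1896 in YT-ECKO against 5.97 to 347 in WT with Syt1 at 0, and the 6 oligodendrocyte lineage genes to 0 to 1182 in YT-ECKO against 0 to 355 in WT with Olig1 and Sox10 at 0. The 6 erythroid genes summed to 13411 to 48277 in YT-ECKO against 13237 to 37584 in WT, and all 5 that could be tested were higher in YT-ECKO (median 0.66). Hba-a1 and Hba-a2 had the same value in every library and so the same fit. These sums, the count of 5 and the median include that value under both symbols. The fibroblast and microglia lists each had 1 tested gene, lower in YT-ECKO, and the neuron and oligodendrocyte lists each had 1, higher. None of these marker genes passed the limma adjusted p of 0.05. Several of these cell types use Notch genes too, and their part in the values above was not tested.

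Within the groups the Notch genes tended to be high or low in the same libraries. Deviations from the group mean, on the log2(scaled reads + 128) scale over 8 libraries, correlated positively for 32 of 36 pairs of the 9 genes, with a median Pearson r of 0.50 and a range from -0.54 for Jag2 with Hes1 to 0.90 for Hey1 with Nrarp. Over all pairs of tested genes in the 8 libraries the median was 0.01 and 50.7% were positive, with no such values formed for fewer libraries. Much of the pattern of the Notch genes rested on YT-ECKO 1, which was the lowest of its group for 8 of the 9 genes. Over the other 7 libraries their median r was 0.09, with 23 pairs positive. These points share library depth, and YT-ECKO 1 had the lowest implied depth of the 8 at 6.61 M reads. In WT, library 4 was the lowest of its group for 6 of the 9 genes. WT 2, the library of lowest implied depth in WT at 7.44 M reads, was the lowest for 1. The part of depth in these counts was not tested, and the counts are given without a share over all tested genes.

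The share of Rn45s, a ribosomal RNA precursor, also differed between libraries. It was 13.8%, 10.8%, 8.97% and 14.8% of scaled reads across YT-ECKO 1 to 4 and 8.39%, 13.5%, 11.8% and 13.1% across WT 1 to 4. The libraries with the lower share, YT-ECKO 2 and 3 and WT 1 and 3, were also the 4 of greatest implied depth. Notch1 separated by this division and not by genotype: its lowest value among these 4 libraries was 1058 scaled reads and its highest among the other 4 was 970, a separation seen for 299 genes in this direction, or 3.43% of those tested. Within the lower-share and the higher-share libraries, the log2 difference of Rbpj was -1.82 and -1.74, and that of Notch4 was 0.72 and 0.90. Those of Hes1 were -0.37 and -0.57, and those of Nrarp -0.41 and -0.45. For the ligands Dll4 and Jag1 the sign turned, with 0.45 and 0.98 in the lower-share libraries and -0.98 and -1.03 in the higher-share ones. These within-set values rest on 2 libraries against 2 and were not tested.

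**Figure D3:**
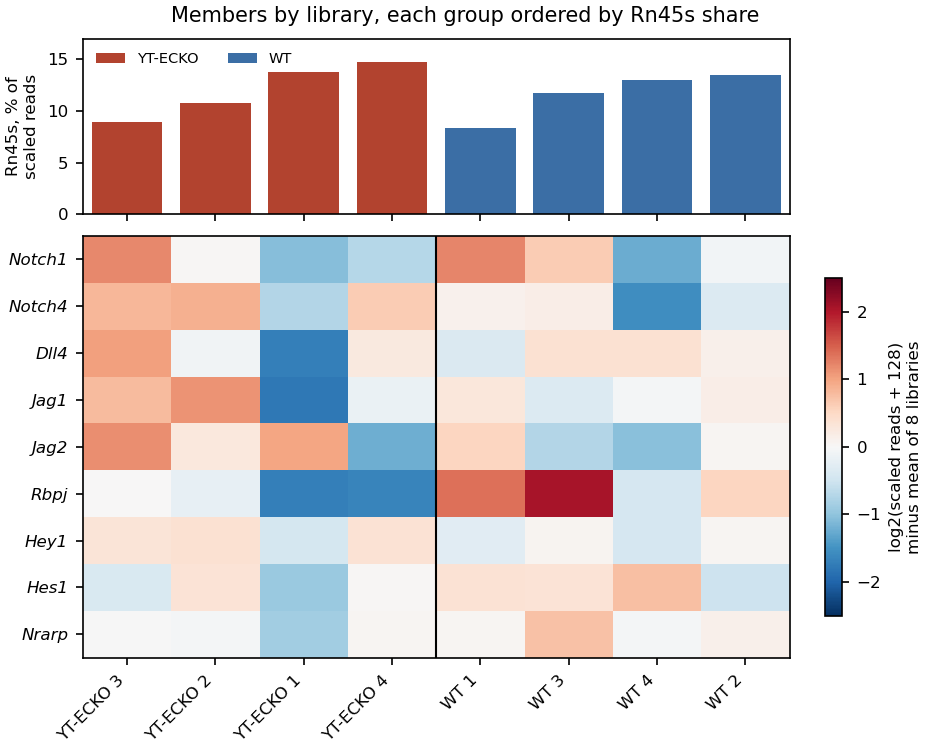
Top, Rn45s as a percent of scaled reads in each library, YT-ECKO left of WT and each group in order of that share. Bottom, log2(scaled reads + 128) of the 9 tested Notch genes minus the mean over the 8 libraries (red above the mean, blue below). The column of YT-ECKO 1 is below the mean for 8 of 9 genes, and the row of Rbpj is darkest blue in YT-ECKO 1 and 4 and darkest red in WT 3.

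Beyond the 10 genes, a list of 70 other Notch pathway genes gave 52 tested genes, with 22 higher and 30 lower in YT-ECKO. None passed an adjusted p of 0.05 (limma), Tle1, Ctbp2 and Dtx4 had an unadjusted limma p under 0.05 (1 gene with voom), and the median log2 difference was -0.09, equal to that of all tested genes. The groups did not overlap for 2 of the 52, read against the 3.40% over all genes. Of the list, 8 genes were listed at 0 in all 8 libraries, among them Dll3, Hes2, Hes3 and Hes7.

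The co-repressors of RBPJ held both genes without overlap. Tle1, a Groucho family co-repressor that Hes and Hey proteins recruit, stood at 2490, 3943, 2892 and 3172 scaled reads across YT-ECKO 1 to 4, against 1098, 1524, 2362 and 1875 across WT 1 to 4. Every YT-ECKO library exceeded every WT library, the closest pair being YT-ECKO 1 and WT 3. The fit gave a log2 difference of 0.85 ± 0.36 (SE; adjusted p = 0.861, limma). Ctbp2, which encodes a C-terminal binding protein found in repressor complexes, stood at 3.13, 605, 680 and 439 scaled reads across YT-ECKO 1 to 4, against 790, 722, 2018 and 812 across WT 1 to 4. Here every YT-ECKO library lay below every WT library, with a log2 difference of -1.29 ± 0.58 (SE; adjusted p = 0.882, limma). Of the 14 co-repressors tested, 9 had higher and 5 had lower values (median 0.05). Ctbp1 had a difference of 0.38 ± 0.32, and Rita1, which exports RBPJ from the nucleus in human cells, one of -1.23 ± 0.67 (SE; adjusted p = 0.928, limma). Of the 8 nuclear co-activators, 4 had higher and 4 had lower values (median -0.09). Maml2, a Mastermind gene, was listed at 0, 647, 166 and 248 scaled reads across YT-ECKO 1 to 4, against 885, 565, 653 and 231 across WT 1 to 4 (-1.04 ± 0.61, SE). The acetyltransferase genes Kat2a (1.04 ± 0.62) and Kat2b (0.79 ± 0.52) lay above 0 and Crebbp (-0.93 ± 0.61) below it, and Snw1, which encodes a co-activator of the Notch complex, had a difference of -0.24 ± 0.54 (SE each).

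Of the 9 genes of receptor endocytosis and degradation tested, 2 had higher and 7 had lower values (median -0.17). Dtx4, which encodes a Deltex ubiquitin ligase, stood at 1188, 189, 36.8 and 620 scaled reads across YT-ECKO 1 to 4, against 59.5, 60.3, 0 and 52.7 across WT 1 to 4. YT-ECKO 1, 2 and 4 lay above every WT library and YT-ECKO 3 lay within the WT range. The fitted log2 difference was 1.49 ± 0.62 (SE; adjusted p = 0.844, limma). Numb, whose protein antagonises Notch, had a difference of -0.70 ± 0.57 (SE). The ubiquitin ligase gene Nedd4 lay at 0.00 ± 0.59 and Sel1l, a gene of protein quality control in the endoplasmic reticulum, at -0.56 ± 0.62 (SE each).

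For the machinery that prepares and cuts the receptors, the median differences lay near that of all genes. Of the 7 cleavage genes tested, 2 had higher and 5 had lower values (median -0.08). Adam17, a sheddase gene, averaged 6178 ± 3321 scaled reads in YT-ECKO and 5911 ± 1989 in WT, and Aph1a, a gamma-secretase subunit gene, 10436 ± 2025 in YT-ECKO and 10717 ± 808 in WT (SD, n = 4 each). Adam10, the sheddase gene most directly tied to ligand-dependent Notch cleavage, had a difference of -0.44 ± 0.45 (SE). The gamma-secretase subunit genes Ncstn and Psenen had differences of -0.57 ± 0.55 and 0.38 ± 0.55 (SE each). Of 6 glycosylation and folding genes, 3 had higher and 3 had lower values (median -0.15). The Fringe genes, whose enzymes act on Notch receptors, did not share one direction, and none passed the test. Lfng stood at 311, 103, 190 and 314 scaled reads across YT-ECKO 1 to 4, against 136, 2.91, 158 and 8.95 across WT 1 to 4 (0.85 ± 0.54, SE, adjusted p = 0.980, limma). Mfng averaged 1620 ± 467 in YT-ECKO and 1537 ± 336 in WT (SD, n = 4 each). Rfng stood at 1.59, 153, 35.3 and 72.4 across YT-ECKO 1 to 4, against 105, 11.5, 216.5 and 339 across WT 1 to 4 (-0.53 ± 0.51, SE). Pofut1, whose enzyme adds the fucose that Fringe enzymes extend, had a difference of -0.42 ± 0.59, and the convertase gene Furin one of -0.35 ± 0.55 (SE each). Of 4 genes of ligand endocytosis, 1 had a higher and 3 had lower values (median -0.30), with Epn1 at -0.33 ± 0.49 and Neurl1b at -0.47 ± 0.63 (SE each). The epsin gene Epn2 averaged 5118 ± 945 in YT-ECKO and 6397 ± 1730 scaled reads in WT (SD, n = 4 each).

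The other receptors, ligands and targets were mostly low or listed at 0. Egfl7, a secreted endothelial protein that can bind Notch, was the exception, at 88081 ± 19247 scaled reads in YT-ECKO and 92285 ± 4534 in WT (SD, n = 4 each), with a log2 difference of -0.10 ± 0.17 (SE). Notch2 stood at 52.3, 117, 40.7 and 1.17 scaled reads across YT-ECKO 1 to 4, against 44.8, 0, 9.51 and 0 across WT 1 to 4. Notch3, the mural cell receptor, was at 0 in YT-ECKO 1 to 3 and at 41.4 in YT-ECKO 4, against 107, 38.7, 97.9 and 0 across WT 1 to 4. Of the other targets, Hes6 was the 1 gene tested (-0.42 ± 0.58, SE), Hes5 was listed in WT 1 alone, at 306, and Hey2 in YT-ECKO 4 alone, at 21.8.

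**Figure D4:**
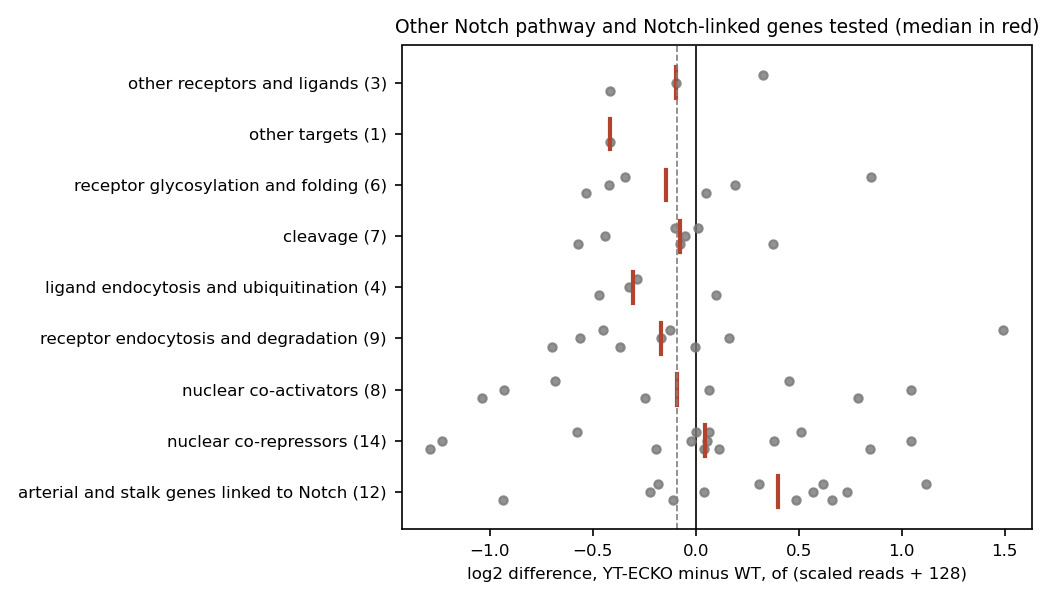
Fitted log2 difference, YT-ECKO minus WT, of scaled reads + 128 for the tested genes of each other list (grey points, number tested in brackets), with the list's median in red. The solid line is 0 and the dashed line is the median of all tested genes. Medians of the pathway lists with 3 or more tested genes run from -0.30 to 0.05, and that of the arterial and stalk genes linked to Notch is 0.40.

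A separate list of 13 arterial and stalk genes linked to Notch gave 12 tested genes, with 8 higher and 4 lower in YT-ECKO and a median log2 difference of 0.40. None passed an adjusted p of 0.05, and 3, Gja4, Acvrl1 and Cxcl12, had an unadjusted limma p under 0.05. The groups did not overlap for Gja4 alone. Over all tested genes 5.47% had such a p, 1.78% with higher values, and 3.40% had groups without overlap. Gja4, which encodes the arterial connexin 37, stood at 3023, 2163, 2291 and 2031 scaled reads across YT-ECKO 1 to 4, against 988, 1185, 1187 and 748 across WT 1 to 4. The lowest YT-ECKO library was well above the highest WT library, and the log2 difference was 1.12 ± 0.38 (SE; adjusted p = 0.675, limma). Acvrl1, the endothelial receptor ALK1 for BMP9 and BMP10, stood at 19715, 8035, 10326 and 15340 scaled reads across YT-ECKO 1 to 4, against 9153, 6348, 9052 and 7465 across WT 1 to 4 (0.66 ± 0.28, SE; adjusted p = 0.861, limma). Cxcl12, an arterial chemokine gene, stood at 10624, 16036, 25620 and 14106 across YT-ECKO 1 to 4, against 11394, 11060, 12357 and 8046 across WT 1 to 4 (0.57 ± 0.26, SE; adjusted p = 0.882, limma). In both, 3 of the 4 YT-ECKO libraries exceeded every WT library. Kdr, the VEGF receptor gene that Notch lowers in stalk cells, had a difference of -0.19 ± 0.27 (SE), and the ephrin gene Efnb2 one of -0.11 ± 0.59 (SE). Sox18 had the lowest difference of the list, -0.94 ± 0.56 (SE). Because the list pools arterial genes with genes that Notch lowers, such as Kdr, its median gives no direction of Notch signalling.

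The genes whose pattern over the 8 libraries was most like that of a Notch gene were sought for the 3 Notch genes with the highest mean scaled reads, among 1930 genes that averaged 1000 scaled reads or more. For Hes1 they were Igf2 (Pearson r = 0.97), Tm2d3 (0.90) and Apod (0.90). For Nrarp they were Epb4.1 (0.96), Chmp1a (0.93) and Sypl (0.91), and for Dll4 they were Neo1 (0.94), Surf4 (0.93) and Nprl3 (0.92). These are the highest of many correlations over the same 8 libraries, which share genotype and depth, and describe these libraries alone.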

How the data were processed

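RNA was extracted with Trizol and 500 ng of it went into Lexogen Quant-Seq libraries, per the labels' protocols. Which part of each transcript the reads cover is not settled there, so a higher value of one gene than of another is not read as more transcript, and sums and ratios are compared between libraries only. Bowtie2 and edgeR with mm10 were used, per the submitters' processing notes; no source used here gives versions, annotation or strand setting. The authors deposited 1 log2 value per gene and library. Low values (under 12 on the linear scale) lay within 0.1 of whole multiples of a step in 88.3% to 100% of cases, so they were read as log2 of scaled read counts, and a listed 0 was kept at 0. In YT-ECKO 2 and 3 and WT 1, 3 and 4 a single read is worth under 1 scaled read and seems to be listed at 0.

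Limma 3.58.1 (R 4.3.3, trended and robust moderation, no covariates) was run on log2(scaled reads + 128), with Benjamini-Hochberg adjustment and a threshold of 0.05. On simulated libraries this fit called 3 of 97 tested genes changed 2-fold and 32 of 95 changed 4-fold. A gene that was not called may therefore still differ by such amounts. Permutation tests used scipy 1.17.1. The Notch genes, the other lists and the settings were chosen with earlier results of these data known. Named from each other list were any called genes, the 3 of smallest p and the 2 of highest mean, so these were picked by their values. Single genes outside this rule, such as Efnb2, Sox18 and Hey2, were in part chosen after their values were seen. Coordinates are GENCODE M21 (GRCm38). Alternatives covered scaling, filter, pseudocount, voom, covariates for Xist and Rn45s, the replicate block and each library left out.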

Additional observations from a re-analysis of the deposited data

Results flagged for a closer look

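In groups of 4 libraries a value was singled out when its gap to the nearest other value exceeded Dixon's 95% critical share of the group's range. For normally distributed values, chance gives this for about 1 group in 20. Of 92 groups of 46 named genes 13 values met it, 3 of them among the 20 groups of the Notch genes. A group with a single library above 0 always meets it, as for Heyl, Notch3, Dlk2 and Hes5 below. The 13 are therefore not read against that rate.

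YT-ECKO 1 stood apart as the lowest of its group for Hey1, at 400.3 scaled reads, and for Nrarp, at 1121. Heyl was above 0 in 1 library of 8, WT 3, at 143.

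Among the other pathway genes, single high libraries were Notch3 in YT-ECKO 4 at 41.4 scaled reads, Dlk2 in YT-ECKO 2 at 394 and in WT 2 at 155, Aph1a in YT-ECKO 2 at 13428 and Neurl1b in YT-ECKO 3 at 649. In WT, Hes5 stood at 306 in WT 1 and Ctbp2 at 2018 in WT 3. Single low libraries were Epn2 in WT 1 at 3822, Snw1 in WT 1 at 281 and Dtx4 in WT 3 at 0.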

How the results depend on the processing

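Of the Notch genes 0 were called (limma adjusted p under 0.05) under any of 19 alternatives, nor were any of the other pathway genes, and the lowest adjusted p of a Notch gene was 0.520. Of 171 fitted differences of 9 genes 159 kept their direction and 12 turned. The changed filters and the replicate block leave a fitted difference at its main value, so these kept their direction by construction. Notch1 was 0.20 with Xist as a covariate and ran from -0.73 to 0.10 over the left-out libraries. Dll4 ran from -0.65 to 0.26 and Jag1 from -0.41 to 0.57 over them. Jag1 was 0.085 with a pseudocount of 512, 0.38 with voom, 0.037 with Xist and 0.049 with the Rn45s share as a covariate. In the lower-share Rn45s libraries, a division chosen after seeing the data, Dll4 was 0.45 and Jag1 0.98. The cause was not tested. With Xist as a covariate Jag2 was 1.35 and Dll4 -0.54; Dll4 was -0.05 with voom, -0.15 with a pseudocount of 512 and -0.44 with upper-quartile scaling. Hey1 was 0.13 and Notch1 -0.45 with that scaling, Notch1 -0.14 with the Rn45s covariate, Jag2 0.36 with a pseudocount of 512 and Hey1 0.46 with voom. Rbpj ran from -3.80 (pseudocount 1) to -0.95 (pseudocount 512). The number of Notch genes without overlap ran from 0 to 2 over the left-out libraries, where 5.25% to 7.25% of all tested genes did not overlap. Over all genes, 3 were called, against 0 without a filter, with a pseudocount of 1 or with voom, 2 with a pseudocount of 16, 4 with one of 512, 5 with Xist, and 0 (without WT 2) to 6 (without YT-ECKO 3) over the left-out libraries. Upper-quartile scaling moved the median of all genes by -0.13, voom by -0.16, and pseudocounts of 1 and 16 by -0.19 and -0.11.

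With the replicate block 5 genes were called over all and 0 Notch genes. Same-numbered libraries correlated at -0.03, -0.04, 0.07 and 0.08 in their deviations, and 1 of 4 matched its own number best, so the numbers were not taken as pairing.

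The half-width of a gene's 95% interval had a median of 1.10 log2 units before any adjustment, and intervals cover the spread between 4 libraries a group.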

Other observations

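Ratios of scaled reads between a pair of ligands and a pair of receptors were formed within each library, to be compared between libraries. Dll4 over Jag1 was 6.49, 0.963, 2.87 and 3.67 across YT-ECKO 1 to 4, against 1.53, 2.48, 4.77 and 3.63 across WT 1 to 4. The medians were 3.27 in YT-ECKO and 3.05 in WT, and the YT-ECKO libraries held both the lowest and the highest ratio.

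Notch4 over Notch1 was 1.48, 2.10, 0.838 and 3.17 across YT-ECKO 1 to 4, against 0.480, 0.899, 0.772 and 0.835 across WT 1 to 4. YT-ECKO 1, 2 and 4 lay above every WT library, and YT-ECKO 3 lay below WT 2 alone. The ratio was formed with the values of its genes known and is given as a description. A ratio of 2 transcripts shows that they differ unequally, not which of them moved.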
